A study of Mus musculus with 12 samples.

Results

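The genes described here are the 31 autophagy and lysosome genes chosen by name, not by a threshold on their values, from the RNA sequencing tables of mouse cumulus cells. They comprised 16 genes of the autophagy machinery, 14 genes of lysosomal enzymes and membrane proteins, and Tfeb, a transcription factor of lysosomal genes. A value was obtained for 13318 genes in at least 1 library, and 9022 of them could be tested. Of the 31 genes, 28 were among the 9022 tested, namely 14 autophagy genes, 13 lysosomal genes and Tfeb. Map1lc3b, Gabarap and Mcoln1 were not analysed here.

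The samples were cumulus cells, which enclose the oocyte in the follicle, of Kunming mice, given in the cell type label as granulosa cells of antral follicles. In 3 libraries the cells had been exposed to follicle-stimulating hormone (FSH) together with fetal bovine serum (FBS) for 18 h, and 3 libraries were labelled untreated, with no culture time given. The labels give no separate FSH or FBS group, so the contributions of the hormone and the serum cannot be told apart. The design text speaks of intact cumulus-oocyte complexes in an expansion-supporting medium and of complexes without their oocyte in an apoptosis-triggering medium, and the labels do not say which of these the untreated libraries came from. Animal age and the number of animals pooled are not given in the labels, and fewer cells of a type and less RNA per cell cannot be told apart in such bulk samples.

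Autophagy encloses cytoplasm in a double membrane, the autophagosome, and delivers it to the lysosome for breakdown. The ULK1 kinase starts the process, the Beclin 1 lipid kinase complex and the WIPI proteins form the membrane, and a ubiquitin-like conjugation system attaches LC3 and GABARAP proteins to it, where cargo receptors such as p62 bind. Lysosomes then degrade the cargo with acid proteases, glycosidases and lipases, and TFEB, which binds CACGTG-containing promoter motifs, is known for raising the expression of many of these genes. In the ovary, granulosa and cumulus cells are known to use autophagy, and it has been studied there mostly in relation to follicle atresia.

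The tables hold length- and depth-normalised fragment values (FPKM) for first exons, last exons and splicing events. Each gene was represented in each library by its first-exon or its last-exon FPKM total, whichever was higher. They listed 10475 to 11398 genes in the libraries with FSH and FBS and 10786 to 11552 in the untreated ones, with no counts, so the depth is unknown. Libraries 1 and 2 of each group were far closer to each other than to library 3 of their group: their median absolute log2 difference was 0.107 with FSH and FBS and 0.128 in the untreated group, against 0.393 to 0.482 for the pairs with library 3. They were therefore averaged and counted as 1 sample, which left 2 samples a group, and nothing in the labels says that the libraries came from separate cultures. Summed cumulus and granulosa cell markers were 430 to 581 FPKM with FSH and FBS and 473 to 617 FPKM in the untreated libraries. Inha held the largest part (276 to 282 FPKM with FSH and FBS, 350 to 502 FPKM untreated), and the markers differed in direction. Inha, Fshr, Amhr2 and Wt1 were lower in every library with FSH and FBS, and Amh, Npr2, Nr5a2 and Hsd17b1 were higher. Inhba overlapped, Cyp19a1 was listed only in libraries 1 and 2 with FSH and FBS, and Inhbb and Foxl2 were listed in no library. The levels of 15 leukocyte markers, which bear on lysosomal genes because macrophages are rich in lysosomes, summed to 2.96 to 8.72 FPKM with FSH and FBS and 11.0 to 14.1 FPKM in the untreated group, and Csf1r, Cd14, Itgam, Laptm5 and Cd52 were listed in no library. Oocyte markers summed to 27.9 to 36.2 FPKM untreated. With FSH and FBS they summed to 8.36, 7.90 and 30.8 FPKM in libraries 1, 2 and 3. Of the 25 oocyte markers, 4, 4 and 10 were listed with FSH and FBS and 17, 15 and 13 untreated. Gdf9 had 0.260, 0.157 and 8.77 FPKM with FSH and FBS and 4.16, 5.10 and 6.06 FPKM untreated. Tle6 was higher in every library with FSH and FBS. Theca and stromal markers summed to 32.2 to 44.7 FPKM with FSH and FBS and 70.8 to 90.1 FPKM untreated. Endothelial markers summed to 2.58 to 3.37 FPKM with FSH and FBS and at most 0.454 FPKM untreated. The leukocyte sum was thus lower in every library with FSH and FBS. The theca and stromal sum was carried by Acta2 (13.6 to 17.5 FPKM with FSH and FBS, 58.3 to 67.7 FPKM untreated). Dcn had 7.86, 7.01 and 2.99 FPKM untreated and was listed in no library with FSH and FBS, Tagln and Nr2f2 overlapped, and Star went the other way. The endothelial sum was mostly Cdh5 (2.06 to 2.63 FPKM with FSH and FBS, listed in no untreated library), with 7 of the 10 endothelial markers listed in no library. The part of other cell types in the differences below was not tested.

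Most of the lysosomal genes had higher levels in the libraries with FSH and FBS, whereas the autophagy machinery was divided. Sqstm1, Ctsb, Gla, Neu1 and Psap were 2.61 to 3.29 times as high in mean FPKM, with every library above every untreated one. Gabarapl1 and Ulk1 were lower in every library with FSH and FBS. With 2 samples a group, however, limma called 0 of the 28 genes at a Benjamini-Hochberg adjusted p of 0.05, where 2.37% of all genes tested were called (1.68% higher and 0.687% lower). At an unadjusted p of 0.05, 6 of the 28 were higher and 1 was lower, against 12.1% and 4.31% of all genes. When all 6 libraries were counted as separate samples, limma called 7 of the 28 (25%), namely Sqstm1, Ctsb, Gla, Gaa, Neu1 and Psap higher and Gabarapl1 lower, where 14.7% of all genes were called (10.8% higher and 3.88% lower). With 2 samples a group and the replicate as a block (the averaged libraries 1 and 2, or library 3, of both groups), it called Sqstm1, Tfeb, Ctsb, Gla, Neu1 and Psap higher and Ulk1 lower, against 16% of all genes (11.5% higher and 4.51% lower). The fit over 6 libraries treats the close pairs as independent, the block fit leaves 1 residual degree of freedom a gene and leans on the spread that limma shares across genes, and every p-value reflects the spread among these libraries alone, which may be technical.

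The FSH and FBS libraries lay above all untreated libraries for 13 of the 28 genes (46.4%) and below them for 5 (17.9%), where 29.4% of all genes tested lay above and 9.54% below (38.9% in either direction). Among the 13 lysosomal genes 8 lay above (61.5%) and 1 below (7.69%), and among the 14 autophagy genes 4 lay above and 4 below (28.6% each). The median log2 difference was 0.48 over the lysosomal genes and 0.12 over the autophagy genes, beside 0.24 over all genes tested. The pairs of libraries differed in this: libraries 1 and 2 alone gave -0.21 for the autophagy genes, 0.34 for the lysosomal genes and 0.14 for all genes, and library 3 alone gave 0.54, 0.72 and 0.35. The all-gene median moved to 0.01 when libraries were scaled by their median ratio to the mean library and to -0.01 with equal sums. The differences below thus depend in part on the scale of the deposited values, by an amount that varies by gene. Median-ratio scaling moved Sqstm1 from 1.39 to 1.12 and Tfeb from 1.07 to 0.88. With median-ratio scaling and equal sums the lysosomal median was 0.21 and 0.19, and the autophagy median turned negative, at -0.13 and -0.15. Leaving out library 3 of FSH and FBS also gave a negative autophagy median, -0.05.

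**Figure D1:**
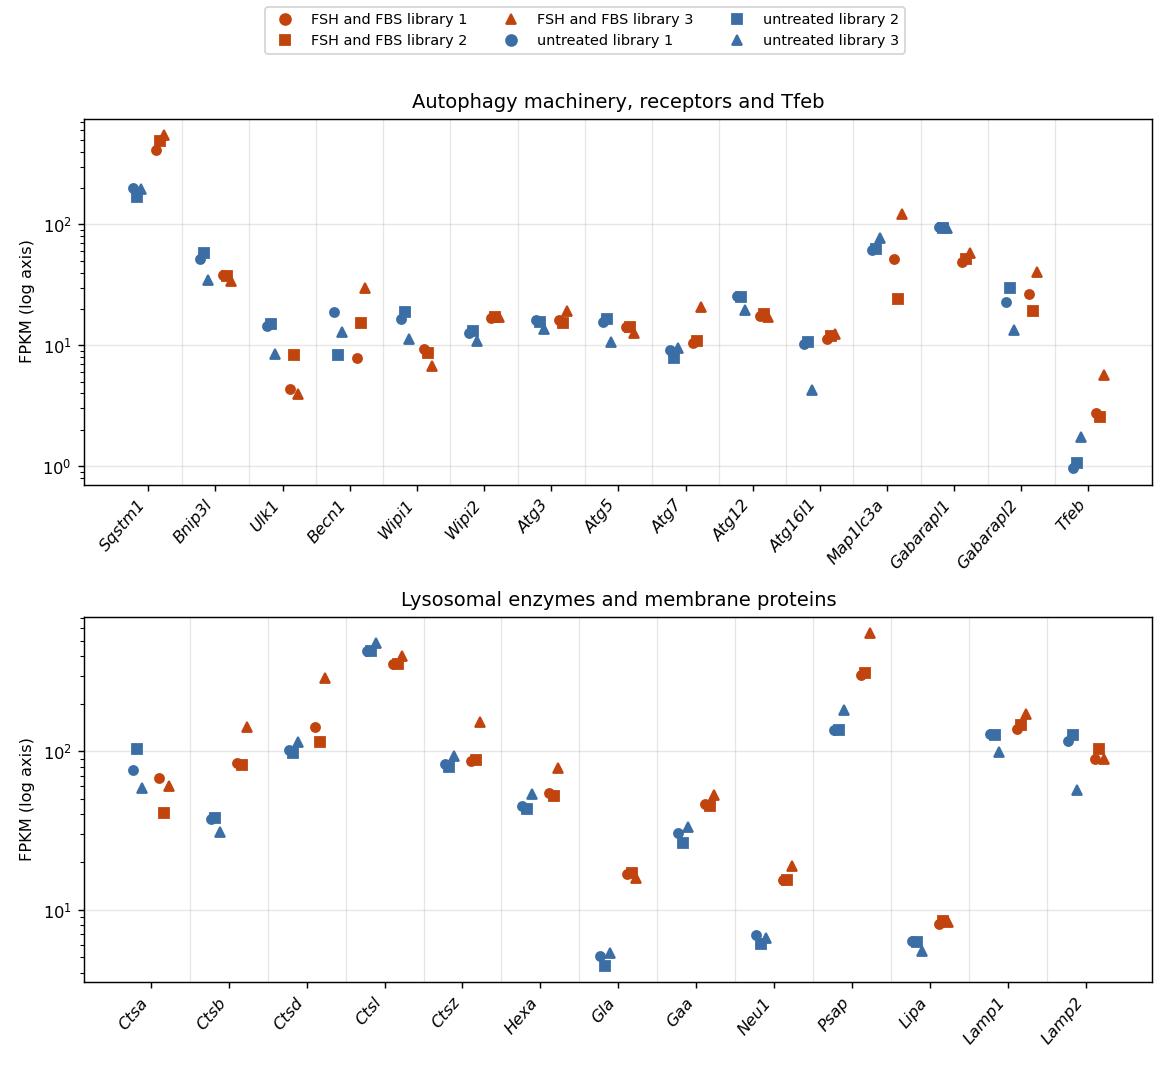
FPKM (log axis) of each of the 28 tested genes in each of the 6 libraries, with 1 marker per library, colour for the group and marker shape for the library number. Sqstm1, Ctsb, Gla, Neu1 and Psap show both colours fully apart, while Ctsl, the gene with the highest mean over both groups, shows a small difference in the other direction.

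Among the cargo receptors, Sqstm1 stood apart from Bnip3l. Sqstm1 encodes p62, which links ubiquitinated cargo to LC3 and is itself degraded by autophagy. Its level was 199, 167 and 196 FPKM in untreated libraries 1, 2 and 3, and 415, 486 and 547 FPKM with FSH and FBS. The groups did not overlap, and the means were 189.6 ± 9.25 and 499 ± 68.5 FPKM (SD, n = 2 samples a group), a ratio of 2.63. The difference was 1.39 ± 0.44 (SE) in log2(FPKM + 1), the scale of every log2 difference here, and missed the threshold (limma adjusted p = 0.171). It passed with 6 separate libraries (limma adjusted p = 0.00739) and with the replicate block (0.0441). Bnip3l, a receptor for mitochondria, had 52.2, 57.7 and 34.7 FPKM in the untreated libraries and 38.0, 37.4 and 33.9 FPKM with FSH and FBS. The groups overlapped through untreated library 3, and the log2 difference was -0.28 ± 0.37 (SE).

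Of the initiation and membrane-forming genes, Ulk1 and Wipi1 were lower and Wipi2 was higher. Ulk1, the kinase that starts autophagosome formation, had 14.3, 15.1 and 8.42 FPKM in the untreated libraries against 4.37, 8.27 and 3.99 FPKM with FSH and FBS. The lowest untreated value lay just above the highest value with FSH and FBS. Its log2 difference was -1.01 ± 0.42 (SE), and limma gave an adjusted p of 0.284 with 2 samples a group, 0.0683 with 6 libraries and 0.0211 with the replicate block. Wipi1, a phosphoinositide-binding protein of the forming membrane, had 16.5, 18.8 and 11.3 FPKM untreated and 9.27, 8.71 and 6.77 FPKM with FSH and FBS, also without overlap. The log2 difference of Wipi1 was -0.78 ± 0.38 (SE), and none of the 3 fits called it. Its paralogue Wipi2, which recruits the Atg16l1 complex, had 12.6, 13.2 and 10.9 FPKM untreated and 16.9, 17.3 and 17.2 FPKM with FSH and FBS. This narrow separation in the opposite direction amounted to 0.50 ± 0.34 (SE). Becn1, which encodes Beclin 1, had 19.0, 8.34 and 12.9 FPKM untreated and 7.86, 15.4 and 29.9 FPKM with FSH and FBS. Its libraries overlapped widely, and the difference took opposite signs in libraries 1 and 2 (-0.22) and in library 3 (1.15).

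The conjugation genes did not share a direction. Atg7 encodes the E1-like and Atg3 the E2-like enzyme of LC3 lipidation, and ATG12, ATG5 and ATG16L1 form the complex that directs it to the membrane. Atg5 had 15.5, 16.6 and 10.7 FPKM untreated and 14.3, 14.2 and 12.6 FPKM with FSH and FBS, with equal group means of 13.4 FPKM. Atg3 had 16.2, 15.7 and 13.7 FPKM untreated and 16.1, 15.3 and 19.3 FPKM with FSH and FBS, and the groups overlapped. Atg12 was lower without overlap, at 25.5, 25.0 and 19.6 FPKM against 17.5, 18.1 and 17.1 FPKM. The difference of Atg12, -0.33 ± 0.34 (SE), was no larger than its error. Atg7 had 9.14, 7.81 and 9.43 FPKM untreated and 10.4, 10.8 and 20.6 FPKM with FSH and FBS. Atg16l1 had 10.3, 10.6 and 4.24 FPKM untreated and 11.2, 11.9 and 12.5 FPKM with FSH and FBS. Both were higher without overlap, with larger differences in library 3: libraries 1 and 2 gave 0.30 for Atg7 and 0.13 for Atg16l1, against 1.05 and 1.36 in library 3. None of the 5 genes was called by any of the 3 fits, the differences of Atg3 and Atg5 turned negative with either scaling, and that of Atg7 was -0.09 from first exons alone.

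The LC3 and GABARAP proteins coat the autophagosome membrane, and of the 3 such genes tested Gabarapl1 differed most evenly. Its level was 95.8, 94.1 and 92.9 FPKM in the untreated libraries and 48.9, 52.0 and 58.0 FPKM with FSH and FBS. The means of 93.9 ± 1.45 and 54.2 ± 5.35 FPKM (SD, n = 2) had a ratio of 0.578, and the log2 difference was -0.78 ± 0.35 (SE). Limma gave an adjusted p of 0.321 with 2 samples a group, 0.0194 with 6 libraries and 0.145 with the replicate block. Map1lc3a, an LC3 gene, ranged more within the groups than between them, with 61.8, 62.3 and 76.6 FPKM untreated and 51.4, 24.2 and 123 FPKM with FSH and FBS. Gabarapl2 had 22.7, 30.0 and 13.3 FPKM untreated and 26.6, 19.1 and 40.3 FPKM with FSH and FBS, so its groups overlapped too. The 3 genes together summed to 180.2, 186 and 183 FPKM untreated and to 127, 95.3 and 221 FPKM with FSH and FBS. The sum was thus lower in libraries 1 and 2 and higher in library 3.

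Tfeb was expressed near the lower limit of the genes tested. Its level was 0.966, 1.05 and 1.74 FPKM in the untreated libraries and 2.75, 2.52 and 5.70 FPKM with FSH and FBS. Every library with FSH and FBS lay above every untreated one, and in both groups library 3 was the highest. The means of 1.38 ± 0.521 and 4.17 ± 2.17 FPKM (SD, n = 2) had a ratio of 3.03, and the log2 difference of 1.07 ± 0.44 (SE) understates the fold of so low a gene because of the added 1 FPKM. Limma gave an adjusted p of 0.280 with 2 samples a group, 0.0678 with 6 libraries and 0.0330 with the replicate block.

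**Figure D2:**
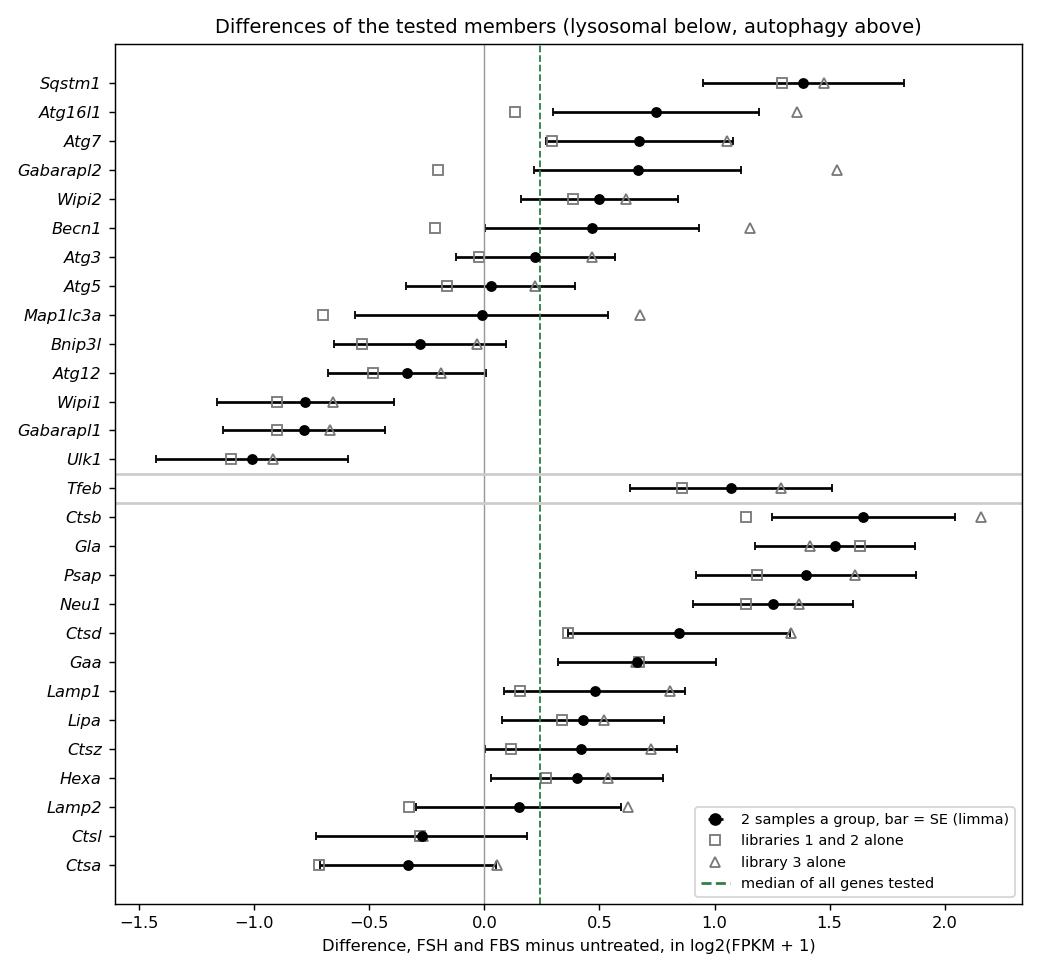
Difference between FSH and FBS and untreated in log2(FPKM + 1) for each tested gene, with the limma estimate and its SE as a black point and bar, libraries 1 and 2 alone as squares, library 3 alone as triangles, and the all-gene median as a dashed line. Gla, Neu1, Sqstm1, Gaa and Gabarapl1 have squares and triangles close together, whereas Becn1, Map1lc3a and Gabarapl2 have them on opposite sides of 0.

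The lysosomal proteases did not move as a group. Ctsb encodes cathepsin B, a cysteine protease, and had 37.1, 38.0 and 31.0 FPKM untreated and 84.9, 82.4 and 142 FPKM with FSH and FBS. The groups were well separated, with means of 34.2 ± 4.66 and 113 ± 41.0 FPKM (SD, n = 2) and a ratio of 3.29. Its log2 difference was 1.65 ± 0.40 (SE), the highest of the 28 genes, and limma gave an adjusted p of 0.0845 with 2 samples a group, 0.0103 with 6 libraries and 0.00776 with the replicate block. Ctsl, encoding cathepsin L, had the highest mean level over both groups of all 28 genes, although Sqstm1 and Psap were above it with FSH and FBS. Its order was the opposite of Ctsb, with 431, 432 and 484 FPKM untreated and 355, 355 and 403 FPKM with FSH and FBS. The groups of Ctsl did not overlap, but the log2 difference of -0.27 ± 0.46 (SE) was smaller than its error. Ctsd, the aspartic protease cathepsin D, had 102, 98.0 and 115 FPKM untreated and 142, 115 and 291 FPKM with FSH and FBS. The lowest FSH and FBS library of Ctsd was barely above the highest untreated one, and library 3 carried most of the difference (1.33, against 0.36 in libraries 1 and 2). Ctsz, cathepsin Z, had 83.0, 79.3 and 92.9 FPKM untreated and 87.5, 88.7 and 154 FPKM with FSH and FBS, and the groups overlapped. Ctsa encodes protective protein, a carboxypeptidase that stabilises neuraminidase 1, and had 76.4, 103 and 58.3 FPKM untreated and 68.1, 40.6 and 60.6 FPKM with FSH and FBS. Summed over the 5 proteases, the level was 729, 751 and 782 FPKM untreated and 738, 682 and 1050 FPKM with FSH and FBS, so only library 3 with FSH and FBS stood above the untreated range.

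The remaining lysosomal enzymes and activators act on glycoconjugates, glycogen and lipids, and Gla, Neu1, Psap, Gaa and Lipa were higher without overlap. Gla, alpha-galactosidase A, which removes galactose from glycolipids, had 5.12, 4.41 and 5.36 FPKM untreated and 16.7, 17.0 and 16.0 FPKM with FSH and FBS. Libraries within each group were nearly equal, with means of 5.06 ± 0.416 and 16.4 ± 0.633 FPKM (SD, n = 2) and a ratio of 3.24. The log2 difference was 1.52 ± 0.35 (SE), and the limma adjusted p was 0.0685 with 2 samples a group, the lowest of the 28 genes, 0.00217 with 6 libraries and 0.00168 with the replicate block. It passed with 2 samples a group when only genes with a mean of at least 5 FPKM were tested (adjusted p = 0.0450) or when last-exon sums were used (0.0418).

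Neu1, neuraminidase 1, removes sialic acid and works in a complex with the product of Ctsa. It had 6.91, 6.05 and 6.66 FPKM untreated and 15.4, 15.5 and 18.8 FPKM with FSH and FBS, a clear gap. The means were 6.57 ± 0.132 and 17.1 ± 2.36 FPKM (SD, n = 2), with a ratio of 2.61 and a log2 difference of 1.25 ± 0.35 (SE). Limma gave an adjusted p of 0.126 with 2 samples a group, 0.00625 with 6 libraries and 0.0071 with the replicate block. Psap encodes prosaposin, the precursor of the saposins that present sphingolipids to their hydrolases. Its level was 136, 136 and 182 FPKM untreated and 306, 314 and 558 FPKM with FSH and FBS. Library 3 was the highest of both groups, and the means were 159 ± 32.6 and 434 ± 176 FPKM (SD, n = 2). The ratio was 2.73 and the log2 difference 1.40 ± 0.48 (SE), with limma adjusted p-values of 0.209, 0.0269 with 6 libraries and 0.0388 with the block.

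Gaa, acid alpha-glucosidase, which degrades lysosomal glycogen, had 30.5, 26.4 and 33.3 FPKM untreated and 46.8, 44.9 and 53.0 FPKM with FSH and FBS. The log2 difference of Gaa was even between libraries 1 and 2 (0.67) and library 3 (0.66), with a limma adjusted p of 0.385, 0.0468 with 6 libraries and 0.178 with the block. These values rest on first exons, and the small last-exon sums of Gaa gave -0.95. Hexa, the alpha subunit of beta-hexosaminidase, had 45.0, 43.3 and 53.8 FPKM untreated and 54.5, 52.2 and 78.5 FPKM with FSH and FBS, and the groups overlapped slightly. Lipa, lysosomal acid lipase, had 6.36, 6.29 and 5.48 FPKM untreated and 8.08, 8.44 and 8.31 FPKM with FSH and FBS. The groups of Lipa did not overlap, with a log2 difference of 0.43 ± 0.35 (SE) and no call in any of the 3 fits.

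LAMP1 and LAMP2 are the abundant glycoproteins that line the lysosomal membrane. Lamp1 had 129.6, 126 and 98.5 FPKM untreated and 138, 147 and 173 FPKM with FSH and FBS, higher without overlap but by only 0.15 log2 units in libraries 1 and 2 and 0.80 in library 3. Lamp2 had 116, 126 and 57.4 FPKM untreated and 89.1, 104 and 88.9 FPKM with FSH and FBS. Untreated library 3 held the lowest value of Lamp2, and the difference was -0.33 in libraries 1 and 2 and 0.62 in library 3. The 13 lysosomal genes summed to 1204, 1225 and 1224 FPKM untreated and to 1411, 1385 and 2044 FPKM with FSH and FBS.

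Promoter windows from RefSeq (build GRCm38.p6), which span 250 bases before to 50 bases after a gene's start, were searched for CACGTG, a palindrome and thus the same on both strands, since TFEB binds motifs built on it. Windows were matched for 22 of the 28 genes, comprising 9 autophagy genes, 12 lysosomal genes and Tfeb, and a gene with several starts has several windows. At least 1 window held the motif in 6 of the 12 lysosomal genes (Ctsa, Ctsd, Ctsl, Gaa, Gla and Lamp1) and in 3 of the 9 autophagy genes (Atg3, Atg5 and Atg7), as in 8.09% of all 27025 genes with a window and 12.6% of the 7115 of them that were tested. The Ctsa matches lie in its second window, and the window at the main first exon of the deposited tables held none. The main deposited first exon of Atg7 begins at -27999 relative to the RefSeq start, so that match is not at the start used most in these libraries. For Ctsl the main deposited first exon begins 214 bases after the RefSeq start, outside the window, and its match lies at -236 from the RefSeq start. The longer form TCACGTGA, which contains CACGTG, was in Ctsa, Ctsd, Gla and Atg3, against 2.52% of the tested genes with a window. The 250 bases before the start are shown for Gla and Gaa, where every library with FSH and FBS was higher by a similar amount, for Lamp1, which held the motif 4 times, and for Atg3, an autophagy gene whose levels overlapped; capitals mark CACGTG. Gla lies at chrX:134601006-134601255 (minus strand), Gaa at chr11:119267713-119267962, Lamp1 at chr8:13158911-13159160 and Atg3 at chr16:45158579-45158828 (all plus strand).
Gla: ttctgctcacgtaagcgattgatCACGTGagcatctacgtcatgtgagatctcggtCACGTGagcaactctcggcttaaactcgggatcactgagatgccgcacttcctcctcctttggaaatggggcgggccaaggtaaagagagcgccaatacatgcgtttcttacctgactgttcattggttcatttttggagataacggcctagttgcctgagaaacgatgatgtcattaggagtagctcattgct
Gaa: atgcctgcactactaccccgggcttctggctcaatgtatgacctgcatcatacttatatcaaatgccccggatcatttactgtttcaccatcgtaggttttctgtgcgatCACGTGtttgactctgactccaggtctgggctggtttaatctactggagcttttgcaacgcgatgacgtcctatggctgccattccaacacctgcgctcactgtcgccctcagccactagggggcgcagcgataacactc
Lamp1: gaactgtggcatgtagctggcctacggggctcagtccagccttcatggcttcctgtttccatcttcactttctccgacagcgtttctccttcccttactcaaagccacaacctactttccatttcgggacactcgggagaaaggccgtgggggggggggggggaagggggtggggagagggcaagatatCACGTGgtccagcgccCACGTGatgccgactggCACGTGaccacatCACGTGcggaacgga
Atg3: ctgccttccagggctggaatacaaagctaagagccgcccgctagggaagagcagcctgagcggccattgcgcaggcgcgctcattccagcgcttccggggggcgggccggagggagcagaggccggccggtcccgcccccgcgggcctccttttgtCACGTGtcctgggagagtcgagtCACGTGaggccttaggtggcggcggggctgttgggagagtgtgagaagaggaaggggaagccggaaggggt

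In Gla the motif begins at positions -227 and -194 from the RefSeq start, in Gaa at -140, in Lamp1 at -61, -45, -28 and -15, and in Atg3 at -94 and -71. From the same start, the main deposited first exon begins at -120 in Gla, -76 in Gaa, -26 in Lamp1 and -44 in Atg3. The Lamp1 match at -15 thus lies within that exon. Of the genes with the motif, Gla, Ctsd, Atg7, Gaa and Lamp1 were 3.24, 1.95, 1.75, 1.60 and 1.39 times as high, without overlap. Atg3, Atg5 and Ctsa also have it, and their groups overlapped. Ctsl has it too and was lower without overlap, although by less than its error. Neu1, Psap, Sqstm1 and Tfeb were 2.61 to 3.03 times as high and have no CACGTG in these windows. Of the other genes without it, Wipi2 and Lipa were higher and Ulk1, Wipi1 and Gabarapl1 lower without overlap. The main deposited first exon of Wipi2 begins at -1886 from the RefSeq start, outside its window, and Ulk1 has no listed first exon. Ctsz, Hexa, Gabarapl2 and Lamp2 lack it too, and their groups overlapped. No window was matched for Ctsb. Whether the motif goes with the size of the difference was not tested. The matches are of letters only, and no binding was measured.

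Exon use within the genes was read from the splicing events, whose build is not given in the sources used here. Main first exons began within 150 bases of a GRCm38.p6 RefSeq start for 18 of the 21 genes with a window and a listed first exon. A form's share is its FPKM over that of all forms of the event in a library, and the values carry no test. The forms described here were chosen after their values were seen, from 40 forms with a share in all 6 libraries. Of these 40 forms, 6 had groups that did not overlap, and 9 had both library 3 values outside those of the other 4 libraries. Complementary forms of the same event, as in Tfeb, Gaa, Sqstm1 and Lamp2, are counted separately. The same counts over the forms of all genes were not taken, so these are no result about these genes. Neu1 retained an intron on chromosome 17, between exon ends 34932828 and 34934003, at 31.5%, 47.2% and 30.0% untreated and at 18.1%, 15.3% and 0% with FSH and FBS, where 0% means that the form was not listed. The retained form itself had 1.87, 2.64 and 1.69 FPKM untreated and 2.79, 2.36 and 0 FPKM with FSH and FBS, so the lower share in libraries 1 and 2 went with more of the spliced form.

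Tfeb started mostly at the first exon chr17:47737030-47737316, with 50.4%, 89.2% and 52.6% of first-exon FPKM untreated and 97.4%, 93.9% and 93.4% with FSH and FBS. A downstream first exon, chr17:47785720-47786196, held 37.5%, 9.75% and 29.7% untreated and 2.42%, 2.81% and 4.70% with FSH and FBS. The groups did not overlap for either exon, although the untreated shares rest on about 1 FPKM of the whole gene. Atg7 had a 53-base cassette exon, chr6:114672791-114672843, included at 42.7%, 100% and 36.2% untreated and listed in no library with FSH and FBS.

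Other forms followed library 3 and not the treatment. Sqstm1 has an internal exon with a long form of 196 bases, chr11:50202399-50202594, whose share was 53.7%, 42.4% and 99.6% untreated and 46.0%, 47.4% and 98.6% with FSH and FBS. Lamp2, which lies on the minus strand, used the last exon chrX:38419507-38421851 at 74.0%, 62.2% and 27.3% untreated and 61.3%, 52.4% and 38.2% with FSH and FBS. The last exon chrX:38405062-38405571 took most of the rest, with 72.2% in untreated library 3 and 61.6% in library 3 with FSH and FBS. Library 3 of each group thus stood apart from libraries 1 and 2 in these forms as it did in several levels above.

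**Figure D3:**
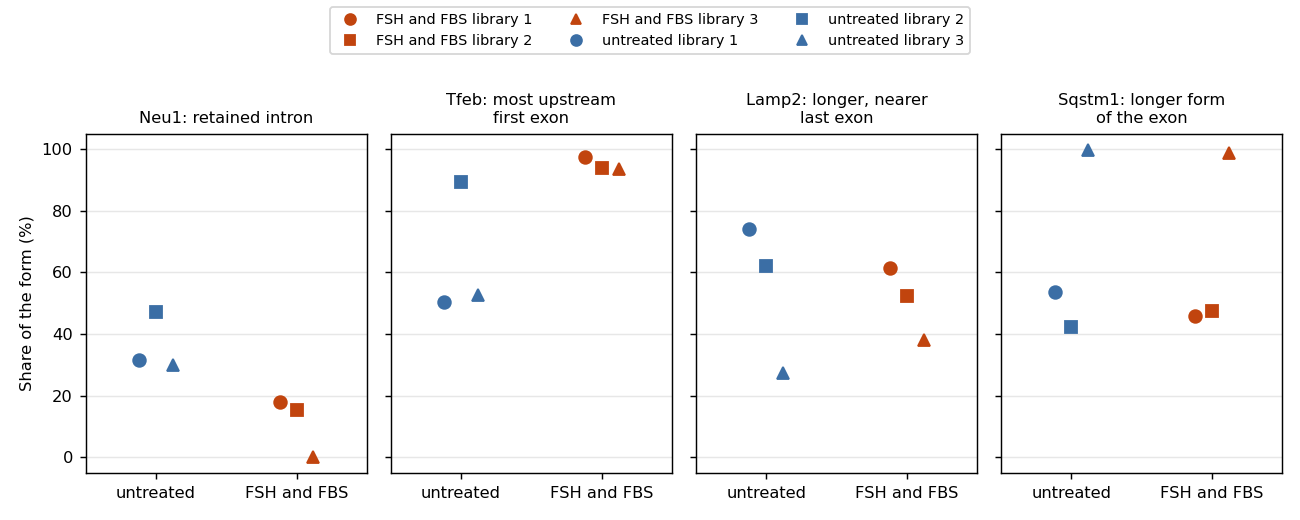
Share in percent of exon forms of Neu1, Tfeb, Sqstm1 and Lamp2 in each library, with groups on the x axis, colour for the group and marker shape for the library number. The Neu1 and Tfeb forms separate by group, whereas the Sqstm1 and Lamp2 forms separate library 3 from libraries 1 and 2 in both groups.

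Other genes of the pathway were taken from 7 lists of 152 genes, of which 135 were tested. Limma called 2 of them higher and 0 lower with 2 samples a group, where 1.68% of all genes tested were called higher and 0.687% lower. Both were hydrolases. The counts were 21 and 1 with 6 libraries, beside 10.8% and 3.88% of all genes. With the replicate block they were 21 and 2, beside 11.5% and 4.51% of all genes. The count with 2 samples a group was 4 higher without library 3 of FSH and FBS, 0 without untreated library 3, and 0 with equal sums or median-ratio scaling. Ctsc, cathepsin C, which activates serine proteases, rose from 2.94, 3.42 and 2.77 FPKM untreated to 24.5, 23.0 and 13.7 FPKM with FSH and FBS (log2 difference 2.26 ± 0.40 SE, limma adjusted p = 0.0284). Ctsk, cathepsin K, a collagen-degrading cysteine protease, rose from 3.48, 3.23 and 2.74 FPKM to 13.1, 14.4 and 16.1 FPKM (1.98 ± 0.36 SE, limma adjusted p = 0.0313). Both groups were fully apart for both genes. Without untreated library 3 the limma adjusted p of Ctsc was 0.106 and that of Ctsk 0.164.

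The genes named at either end of a list below are those with the highest and lowest differences among its genes with a mean of at least 5 FPKM. By function, 18 of the 31 other hydrolases tested lay above all untreated libraries and 2 below, with a median log2 difference of 0.43, from Ctsc to Ctso at -0.76. The lysosomal proton pump, the V-ATPase, had 8 of 16 genes above and 0 below, with a median of 0.54. Its genes ranged from Atp6v1h at 1.19 to Atp6v1g1 at -0.13. Other lysosomal membrane genes had 8 of 17 above and 0 below (median 0.52), from Tmem192 at 1.46 to Scarb2 at -0.40. The genes of mannose 6-phosphate sorting, which carries hydrolases to lysosomes, had 4 of 6 above and 0 below (median 0.66), from Nagpa at 1.03 to Gga2 at -0.28. The other autophagy genes had 8 of 28 above and 0 below (median 0.22). Atg9a, the membrane-spanning lipid scramblase of autophagy, had the highest of their differences at 1.70 (limma adjusted p = 0.0889), and Rb1cc1, a subunit of the ULK1 complex, the lowest at -1.49. The other receptors had 4 of 12 above (median 0.13), from Ncoa4 at 1.16 to Calcoco1 at -0.60. The genes of mTORC1, which holds TFEB and ULK1 in check when nutrients are plentiful, and of its regulators had 8 of 25 above and 2 below (median 0.35), from Lamtor4 at 1.66 to Flcn at -0.34. With median-ratio scaling the medians of the other autophagy genes and receptors turned negative, at -0.01 and -0.12, and those of the other 5 lists stayed positive, from 0.08 to 0.41. Each of these values is a description, beside the 29.4% of all genes that lay above and the 9.54% that lay below.

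**Figure D4:**
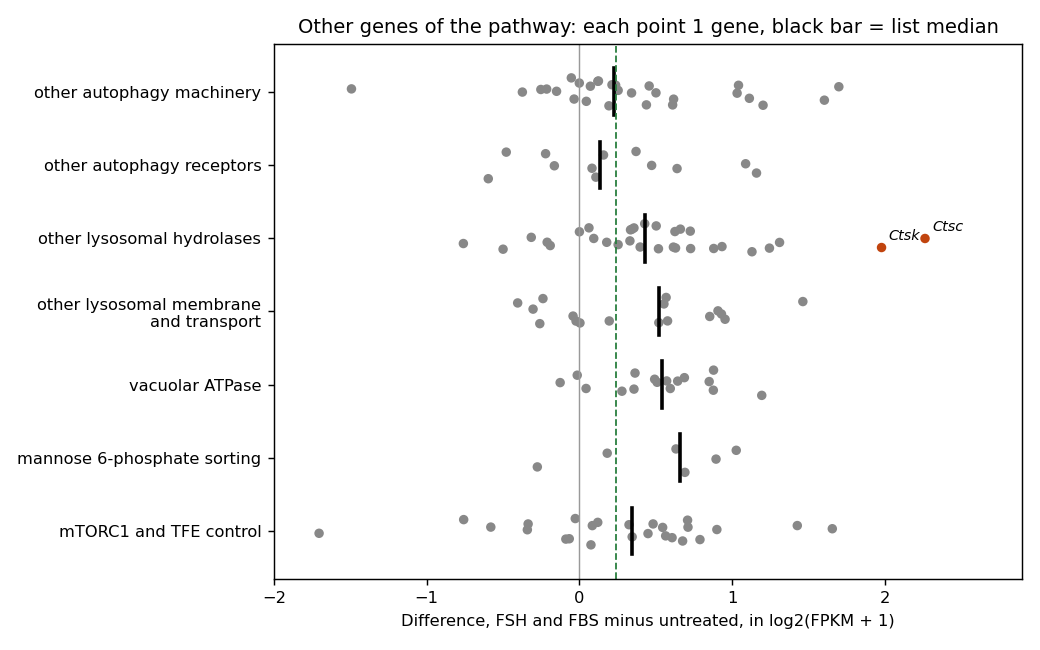
Difference between FSH and FBS and untreated in log2(FPKM + 1) for each tested gene of the 7 lists of other pathway genes, with 1 point per gene and a black bar at each list's median. The hydrolase, membrane, V-ATPase and sorting lists have medians of 0.43 to 0.66, and the lists of other autophagy genes and receptors 0.22 and 0.13.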

How the data were processed

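Cumulus cell RNA was sequenced in 6 libraries, 3 a group; the small RNA samples were not analysed here. The submitters' processing notes name HISAT2 2.0.1 as a tool, and the authors deposited 1 FPKM value per transcript end or splicing event, per the file headers; counter, build and annotation are not given in the sources used here. First-exon and last-exon FPKM were each totalled per gene on its main strand and the higher total was kept, and genes not listed in a library were left missing.

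Genes present in all 6 tables and averaging 1 FPKM or more were fitted together on log2(FPKM + 1) with limma 3.58.1 (R 4.3.3, intensity trend, two-sided, Benjamini-Hochberg, threshold 0.05); libraries 1 and 2 of each group were averaged, giving 2 samples a group. The fit was tested on simulated data with 2 independent samples a group and the same spread in every gene. That simulation did not include deviations shared between same-numbered libraries. An exact permutation test was not used, since 2 against 2 samples cannot give a two-sided p below 0.333. Same-numbered libraries deviated together from their group means (r = 0.32, 0.31 and 0.51 for numbers 1, 2 and 3). Libraries 1 and 2 are close, so their r values follow in part from library 3. Different-numbered libraries were not compared in this way, and the pairing is not stated in the labels. Because libraries 1 and 2 are not independent, the block was set on the averaged samples.

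The genes and lists were chosen with earlier results of these data known. All tested members are named; of other pathway genes, those called and the highest and lowest difference of each list at a mean of at least 5 FPKM. The 16 other settings comprised 6 libraries as separate samples, the block, another pseudocount, other filters, 2 scalings, other gene sums, unlisted genes taken as 0, and leaving out each library. Depth is unknown, so no counting interval is given.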

Additional observations from a re-analysis of the deposited data

How the results depend on the processing

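Over 16 other settings the single genes kept direction and side of the threshold in 432 cases, passed it in 16, lost it in 9 (Ctsc and Ctsk) and reversed in 15. With 6 separate libraries 6 members were called higher and 1 lower, and 21 and 1 other pathway genes, while Atg5 (-0.035) and Lamp2 (-0.012) reversed. The replicate block gave 6 and 1 members and 21 and 2 other genes. A mean of at least 5 FPKM and last-exon sums each gave 1 member higher (Gla). Median-ratio scaling, equal sums and first-exon sums each gave 0 other genes higher. Median-ratio scaling reversed Atg3 (-0.034), Atg5 (-0.22) and Lamp2 (-0.12), and equal sums Atg3 (-0.057), Atg5 (-0.24) and Lamp2 (-0.14) and brought the lysosomal median to 0.19. First-exon sums reversed Atg7 (-0.090) and could not give Ulk1 and Wipi1; last-exon sums reversed Gaa (-0.95) and could not give Bnip3l, Becn1, Wipi1, Atg16l1 and Ctsa. The minimum of 5 FPKM left out Tfeb. With 1 library left out, the autophagy median ranged from -0.05 to 0.21 and the lysosomal from 0.34 to 0.54, members called stayed at 0, and other genes ranged from 0 to 4 higher and 0 lower. Map1lc3a reversed without library 2 of FSH and FBS (0.21), Becn1 without its library 3 (-0.18), and Atg5 (-0.25), Map1lc3a (0.14) and Lamp2 (-0.38) without untreated library 3. With 1 library left out, log2 differences ranged from -0.18 to 0.79 for Becn1, -0.25 to 0.11 for Atg5, -0.85 to 0.21 for Map1lc3a and -0.38 to 0.21 for Lamp2. Calls over all genes were 152 higher and 62 lower, 49 and 41 with median-ratio scaling, 59 and 45 with equal sums, 42 and 21 from first exons, 60 and 41 without untreated library 3, 272 and 112 without library 3 of FSH and FBS, 973 and 350 with 6 libraries, and 1040 and 407 with the block. The causes of these shifts were not tested. A lone sample left after dropping library 3 is assumed to vary like the other group.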

Other observations

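Other pathway genes with separated groups are given here as values and were chosen after their values were seen. Sesn2, a stress-induced leucine sensor upstream of mTORC1, had 7.92, 6.91 and 6.46 FPKM in the untreated libraries and 24.5, 23.2 and 17.2 FPKM with FSH and FBS. Its paralogue Sesn3, a FoxO target, had 12.2, 10.02 and 3.50 FPKM untreated and 1.10, 1.89 and 1.06 FPKM with FSH and FBS. The log2 difference was 1.43 ± 0.36 (SE, limma adjusted p = 0.0951) for Sesn2 and -1.70 ± 0.51 (SE, limma adjusted p = 0.154) for Sesn3. Neither passed with 2 samples a group, and both passed with the replicate block (limma adjusted p = 0.00329 and 0.00322).

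Among hydrolases, Smpd1, acid sphingomyelinase, had 7.56, 7.95 and 7.49 FPKM untreated and 16.4, 16.1 and 19.6 FPKM with FSH and FBS. Manba, beta-mannosidase, had 2.52, 1.77 and 2.09 FPKM untreated and 8.03, 7.89 and 5.67 FPKM with FSH and FBS. The groups were fully apart for both, and limma gave an adjusted p of 0.161 for Smpd1 and 0.136 for Manba with 2 samples a group.

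Some exon forms of the members varied between libraries of 1 group as much as between groups. Ctsa included a 127-base cassette exon, chr2:164833724-164833850, at 27.5%, 2.83% and 80.5% in the untreated libraries and at 11.1%, 86.3% and 96.9% with FSH and FBS. A 43-base form with the same end, chr2:164833808-164833850, was included at 5.86%, 29.2% and 2.05% untreated and at 39.8%, 22.1% and 23.3% with FSH and FBS. A low share of the 127-base form thus does not by itself mean that the whole exon was skipped. Gaa used a shorter first exon, chr11:119267887-119268091, at 5.13%, 12.03% and 12.5% untreated and at 1.61%, 4.31% and 67.1% with FSH and FBS, so library 3 with FSH and FBS stood alone.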
